A study of Mus musculus with 12 samples.

Results

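The genes described here are the histone genes: the rows of a mouse gene count table whose symbols name a histone of the Hist clusters (Hist1 to Hist4), a variant of H2A (H2af), a variant of H3 (H3f3a, H3f3b and H3f3c) or one of the linker histones H1f0 and H1fx. The symbol rule found 22 genes among the 14398 in the table, and all 22 passed the filter on low counts that 14266 genes passed. Of these 22 genes, 10 are variants (H2afx, H2afz, H2afv, H2afj, H2afy, H2afy2, H3f3a, H3f3b, H1f0 and H1fx). The other 12 belong to the replication-dependent Hist clusters (Hist1h1c, Hist1h1d, Hist3h2a, Hist1h2bc, Hist1h2be, Hist2h2be, Hist1h3e, Hist2h3c1, Hist2h3c2, Hist1h4a, Hist1h4i and Hist2h4).

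The RNA came from adipocyte precursor cells, which give rise to fat cells, of male C57Bl6/J mice aged 6 to 8 weeks. The 4 groups were perigonadal (visceral, VWAT) precursors after 3 days on a high-fat diet with 60% lard (VWAT HFD), VWAT precursors on the standard diet (VWAT SD, labelled day 0), inguinal (subcutaneous, SWAT) precursors after the same 3 days of high-fat diet (SWAT HFD), and SWAT precursors on the standard diet (SWAT SD, day 0). Each group had 3 libraries, each pooled from 3 mice, and the cells had been sorted as negative for CD45 and CD31, positive for CD29, CD34 and Sca1, and with or without CD24. If the pools of a group were not from separate animals and days, the p-values measure only the spread between these libraries. Diet and the labelled day of collection go together and cannot be told apart.

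Nucleosomes hold DNA on an octamer of H2A, H2B, H3 and H4, and linker H1 histones bind between them. Replication-dependent genes are switched on in S phase, and most of their mRNAs end right after a short stem-loop that the protein SLBP binds, with no poly(A) tail. Variant genes are mostly transcribed through the whole cell cycle into ordinary polyadenylated mRNAs, and their proteins are put into chromatin outside replication by dedicated chaperones. The libraries were made from poly(A)-selected RNA, so a count for a replication-dependent gene comes from whatever part of its mRNA carried a poly(A) tail and does not measure all of its mRNA.

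The 3′ stem-loop is printed here because an mRNA cut after it carries no poly(A) tail and would not be kept by poly(A) selection. It was sought in the longest protein-coding transcript of each gene in GENCODE M21 as 16 bases that begin with GG and end with CC, whose first 6 bases pair with the last 6 (G-T pairs allowed), with T at bases 7 and 9. This pattern stood in 10 of the 12 replication-dependent genes and, of the 10 variants, in H2afx, against 2.1% of 21901 protein-coding genes. It was not found in Hist1h2bc and Hist2h2be. Capitals mark the 16 bases, with 5 bases on each side.
H2afx: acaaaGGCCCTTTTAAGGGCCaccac
Hist1h1c: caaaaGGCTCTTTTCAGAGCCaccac
Hist1h1d: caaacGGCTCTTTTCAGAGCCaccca
Hist3h2a: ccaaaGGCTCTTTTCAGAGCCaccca
Hist1h2be: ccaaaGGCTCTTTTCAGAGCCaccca
Hist1h3e: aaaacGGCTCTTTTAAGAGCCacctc
Hist2h3c1: acaaaGGCTCTTTTCAGAGCCaccac
Hist2h3c2: acaaaGGCTCTTTTCAGAGCCaccac
Hist1h4a: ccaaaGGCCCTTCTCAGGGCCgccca
Hist1h4i: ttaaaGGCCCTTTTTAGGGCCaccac
Hist2h4: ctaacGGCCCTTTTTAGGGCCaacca
Of these 11 transcripts, 6 shared the 16 bases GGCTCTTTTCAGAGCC (Hist1h1c, Hist1h1d, Hist1h2be, Hist2h3c1, Hist2h3c2 and Hist3h2a), and the H4 genes Hist1h4i and Hist2h4 shared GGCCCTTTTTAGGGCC. Every one of the 11 annotated transcripts ran on past the stem-loop, by 108 to 4884 bases with a median of 840. Among the 12 replication-dependent genes, 8 carried a poly(A) signal (AATAAA or ATTAAA) in the last 50 bases of that transcript, as did 8 of the 10 variants and 72.2% of all protein-coding genes. GENCODE lists 55 further replication-dependent symbols that have no row in the count table. Their median transcript was 508 bases long (shortest 312), 33 of the 55 had the stem-loop pattern and 9 had the signal. The 12 genes in the table had a median of 1595 bases. Whether the annotated transcripts reach the true 3′ end was not checked.

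**Figure D1:**
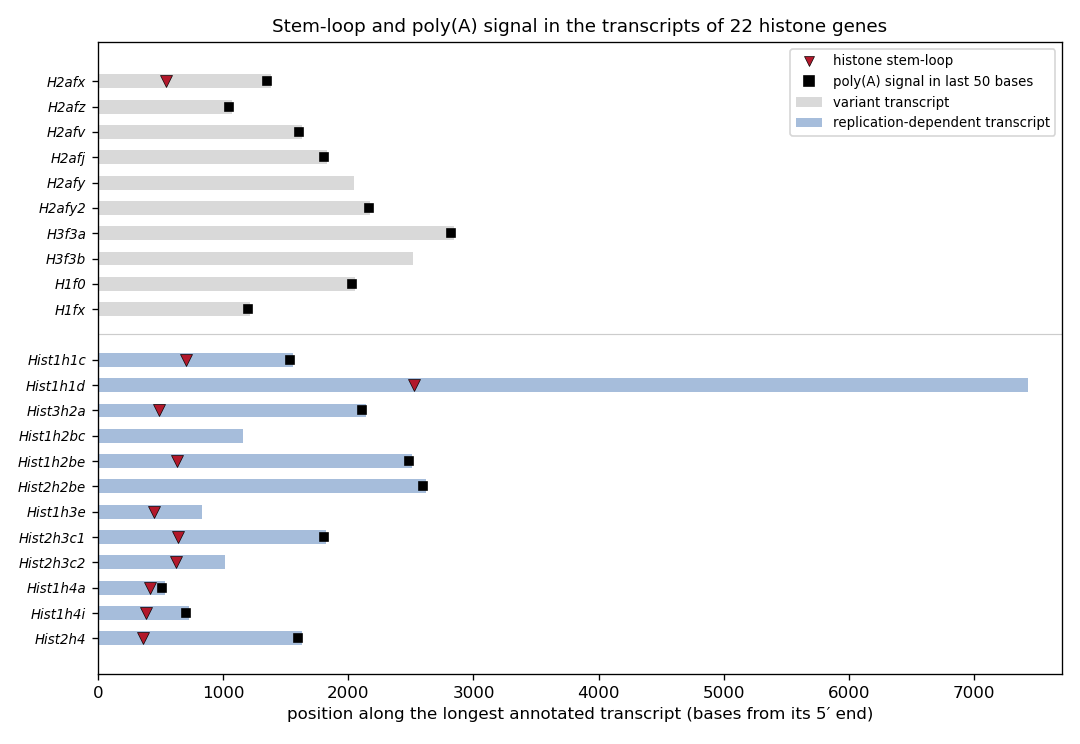
Each bar is the longest annotated transcript of a histone gene, to scale in bases from its 5′ end, with the 10 variants above and the 12 replication-dependent genes below the line. Triangles mark the stem-loop and squares a poly(A) signal in the last 50 bases. The stem-loop lies well inside the transcript in all 11 genes that hold it, and 5 of the 7 replication-dependent genes with both marks have at least 840 bases after the stem-loop.

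Levels must be read with the near-identical copies of these genes in mind, because a read that maps to several places is not counted. Reads without a unique place made up 15.0 to 20.8% of each library. Of all stretches of 75 bases (the read length) in a transcript, those found also in another annotated gene made up 0 to 61.7% in the variants (median 6.6%) and 0 to 100% in the replication-dependent genes (median 24.8%). The share was highest in Hist2h3c1 (100%), Hist2h3c2 (62.6%), H2afz (61.7%) and Hist1h3e (59.4%), whose levels are therefore uncertain. It was 0% in H2afv, Hist2h2be and Hist2h4. Position was not checked, so a gene annotated over the same locus counts as another gene. The share is thus not the part of reads lost, and Hist2h3c1 still had 80 to 290 counts per library. The labels describe a stranded kit, but no source at hand states whether the counting used strand, so reads of these genes and of antisense transcripts cannot be told apart.

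Gene counts per library ran from 17.6 M to 56.1 M. Levels are given as counts per 1e6 counts (CPM), scaled by the trimmed mean of M values (TMM). The sort gene Cd34 averaged 992.7 to 1557 CPM across the 4 groups, and the leukocyte gene Ptprc, which encodes CD45, averaged at most 2.54 CPM. VWAT HFD replicate 3 stood apart in cell division: the summed level of 20 mitosis genes was 406, 636 and 162 CPM in VWAT HFD replicates 1, 2 and 3, against 45.5 to 61.1 CPM in VWAT SD. The sum was 147 to 205 CPM in SWAT HFD and 25.3 to 40.5 CPM in SWAT SD. SWAT HFD replicate 2 had 48.7 CPM summed over 11 leukocyte genes, against 7.96 to 18.2 CPM in the other libraries. In bulk samples such as these, fewer cells of a type and less RNA per cell cannot be told apart.

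Polyadenylated reads from histone genes came mainly from the variants. Per kilobase of transcript, the variants made up 85.1 to 86.5% of the summed histone level in the group means, and the 12 replication-dependent genes the rest. Summed over genes and not divided by length, the variants held 764 ± 50.2 CPM in VWAT HFD, 793 ± 27.9 CPM in VWAT SD, 631 ± 14.8 CPM in SWAT HFD and 611 ± 10.03 CPM in SWAT SD (SD, n = 3 each). The replication-dependent genes summed to 77.2 ± 11.4 CPM in VWAT HFD, 80.6 ± 5.65 CPM in VWAT SD, 73.4 ± 7.85 CPM in SWAT HFD and 68.7 ± 8.38 CPM in SWAT SD (SD, n = 3 each). The replication-dependent sums overlapped between the diets in both depots, and so did the variant sums in VWAT and SWAT. Between depots, every VWAT library had a higher variant sum (708 to 826 CPM) than every SWAT library (600.5 to 647 CPM).

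Within each class, a few genes held most of the level. H3f3b, 1 of the 2 genes that encode the replacement histone H3.3, was the highest histone gene per kilobase, with 181 ± 6.59 CPM per kb in VWAT HFD, 213 ± 15.8 in VWAT SD, 134 ± 7.74 in SWAT HFD and 135 ± 9.61 in SWAT SD. It was followed over all libraries by H2afz (35.4 CPM per kb), H2afy (26.9), Hist1h1c (25.8), H3f3a (25.7) and H1f0 (25.6), and neighbours in this order from H2afy on differed by less than the SD of each among the VWAT HFD libraries (2.68 to 5.30 CPM per kb). Hist1h1c, which encodes the linker histone H1.2, and Hist1h2bc, an H2B gene, together made up 78.9 to 87.5% of the summed CPM of the replication-dependent class in the 12 libraries. Hist2h3c1 followed them in that class with 2.80 CPM per kb over all libraries, and the other 9 genes lay between 0.0171 and 1.08 CPM per kb. Several of those 9 rest on few reads: Hist1h1d had 80 counts and Hist1h3e 90 counts over all 12 libraries. No gene in the table had fewer than 20 counts in its highest library, and Hist1h1d and Hist1h3e reached 20 only in VWAT SD. Their place among the genes tested thus rests on that group, which favours higher levels there.

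After 3 days of high-fat diet in VWAT, 3 histone genes rose (H2afx, H2afz and Hist1h4i) and 2 fell (Hist1h3e and Hist1h4a). The test was edgeR's quasi-likelihood test, fitted and adjusted (Benjamini-Hochberg) over all genes, with a threshold of 0.05. These 5 of 22 genes stood against 15.6% of all tested genes called in this comparison, 8.64% up and 6.98% down. The libraries of both groups did not overlap for 8 histone genes, 3 higher and 5 lower on HFD, beside 33% of all tested genes, 15.5% higher and 17.5% lower. The variants gave 2 of the calls, both up, and the replication-dependent genes 3 of them, 1 up and 2 down. The falls include Hist1h3e, and the 5 genes lower without overlap include Hist1h3e and Hist1h1d. Both reached 20 counts only in VWAT SD, so their entry into the table favours a fall. The median log2 change was 0.09 over the variants and -0.22 over the replication-dependent genes, beside -0.02 over all tested genes. With library size alone as the scaling, which moved the median of all genes to -0.13, the class medians were -0.03 and -0.33, so the sign of the variants' median rests on the scaling. That scaling turned the split of all calls to 799 up and 1822 down, against 1232 up and 996 down with TMM.

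H2afx encodes H2A.X, the H2A variant phosphorylated at DNA breaks, and is the variant whose transcript also holds a stem-loop. It stood at 17.7, 20.9 and 9.57 CPM in VWAT HFD libraries, against 7.35, 8.12 and 8.47 CPM in VWAT SD libraries. All VWAT HFD libraries lay above all VWAT SD libraries, with replicate 3 closest to them. The log2 change was 1.01 ± 0.20 (SE; edgeR adjusted p = 0.0066), and without VWAT HFD replicate 3 it was 1.27 (edgeR adjusted p = 4.1e-06). The call held under all 21 alternative settings, with log2 changes down to 0.78 and adjusted p up to 0.043.

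H2afz encodes H2A.Z.1, a variant found in nucleosomes beside active promoters. Its level was 60.5, 57.3 and 29.2 CPM in VWAT HFD, against 26.9, 29.7 and 28.7 CPM in VWAT SD. VWAT HFD replicate 3 lay inside the VWAT SD range, while the other two libraries were far above it. The log2 change was 0.79 ± 0.20 (edgeR adjusted p = 0.021), and 1.05 without VWAT HFD replicate 3 (edgeR adjusted p = 1.4e-05). The call was lost in 6 of 21 settings, with adjusted p up to 0.11 when VWAT HFD replicate 1 or 2 or any VWAT SD library was left out, or when only the 6 libraries compared were fitted.

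The other variants did not pass in VWAT. H2afv, the gene for the second H2A.Z protein, averaged 24.2 ± 5.77 CPM in VWAT HFD and 21.96 ± 2.21 CPM in VWAT SD (SD, n = 3 each). H3f3a, the other H3.3 gene, averaged 81.2 ± 15.1 CPM in VWAT HFD and 66.7 ± 4.83 CPM in VWAT SD. H2afy, which encodes the large variant macroH2A1, averaged 61.3 ± 5.49 CPM in VWAT HFD and 53.8 ± 1.12 CPM in VWAT SD, without overlap between the groups. VWAT HFD replicate 3 had the lowest level of the 3 VWAT HFD libraries in 9 of the 10 variants. In VWAT SD, replicate 1 was likewise lowest in 9 of the 10. Without VWAT HFD replicate 3, the edgeR test also called H2afv (log2 change 0.33, adjusted p = 0.035), H2afy (0.25, adjusted p = 0.030) and H3f3a (0.43, adjusted p = 0.0086). Leaving out the lowest library raises such changes by construction, also those of H2afx and H2afz. Of all 14324 tested genes, 4266 were then called, against 2228 with all libraries. H3f3b ran the other way: it stood at 435, 459 and 467 CPM in VWAT HFD, against 539, 574 and 495 CPM in VWAT SD. Those groups did not overlap, and its log2 change of -0.24 ± 0.10 did not pass (edgeR adjusted p = 0.10), while DESeq2 (adjusted p = 0.038) and library size alone as the scaling (log2 -0.35, edgeR adjusted p = 0.038) called it lower, 2 of 21 settings. H2afj, an H2A variant of few differences from canonical H2A, averaged 16.4 ± 1.89 CPM in VWAT HFD and 17.04 ± 2.76 CPM in VWAT SD, with log2 changes of -0.06 in VWAT and -0.03 in SWAT. H2afy2, the gene for macroH2A2, had -0.04 in VWAT, and the linker histone genes H1f0 and H1fx had 0.03 and -0.06.

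**Figure D2:**
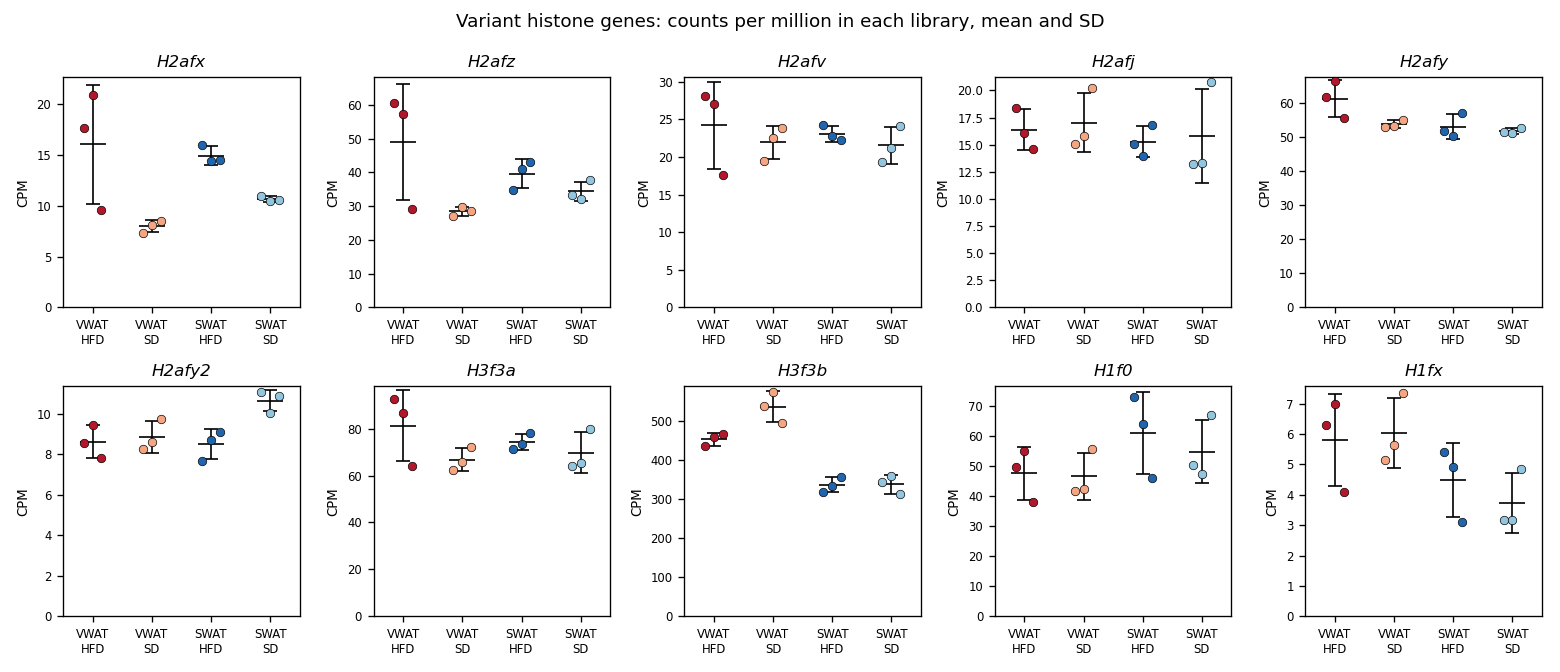
Points are the CPM of each of 3 libraries per group, and bars the mean and SD, for the 10 variant genes; each panel's axis starts at 0. H2afx and H2afz are high in VWAT HFD replicates 1 and 2, with replicate 3 near the VWAT SD libraries, and H3f3b is higher in both VWAT groups than in both SWAT groups.

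Among the replication-dependent genes, the H4 gene Hist1h4i rose while the H4 gene Hist1h4a fell. Both are known to encode the same histone H4 protein. Of their read-length windows, 22.4% in Hist1h4i and 35.5% in Hist1h4a also occur in other annotated genes, among them each other. Their levels are uncertain to that extent. Hist1h4i stood at 0.724, 1.22 and 0.645 CPM in VWAT HFD, against 0.272, 0.339 and 0.203 CPM in VWAT SD. The groups did not overlap, and the log2 change was 1.67 ± 0.31 (edgeR adjusted p = 0.0042). In counts summed over the group it had 134 in VWAT HFD and 43 in VWAT SD, a scaled ratio of 3.21 with a 95% interval for counting error of 2.26 to 4.63. Hist1h4a stood at 0.286, 0.341 and 0.473 CPM in VWAT HFD, against 1.26, 1.04 and 1.57 CPM in VWAT SD. Again no library overlapped, and the log2 change was -1.82 ± 0.37 (edgeR adjusted p = 0.0068), from 56 counts in VWAT HFD and 208 in VWAT SD.

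The promoters of these opposite H4 genes, from RefSeq on GRCm38.p6, are printed 5′ to 3′ on the gene's strand, from 250 bases before to 50 bases after the annotated start. Capitals mark 3 motifs on either strand: CCAAT, the TATA-type motif TATAAA, and the E2F-type motif TTTCCCGC. The counting was done on build mm9, so the positions belong to the reference and not to the count table: chr13:22041313-22041612 for Hist1h4i and chr13:23761200-23761499 for Hist1h4a, both on the minus strand.
Hist1h4i: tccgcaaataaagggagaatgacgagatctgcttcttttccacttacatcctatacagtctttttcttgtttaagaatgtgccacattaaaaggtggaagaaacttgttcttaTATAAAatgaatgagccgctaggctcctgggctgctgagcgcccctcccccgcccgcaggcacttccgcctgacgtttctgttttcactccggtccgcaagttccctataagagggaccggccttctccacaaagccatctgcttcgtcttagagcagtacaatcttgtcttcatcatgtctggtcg
Hist1h4a: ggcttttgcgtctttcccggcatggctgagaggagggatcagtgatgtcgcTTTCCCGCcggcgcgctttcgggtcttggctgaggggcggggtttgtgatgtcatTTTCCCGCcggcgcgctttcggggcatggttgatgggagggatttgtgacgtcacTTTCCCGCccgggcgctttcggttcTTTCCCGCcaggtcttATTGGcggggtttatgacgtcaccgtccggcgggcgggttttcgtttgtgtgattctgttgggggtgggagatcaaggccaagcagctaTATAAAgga
Hist1h4a held TTTCCCGC 4 times and CCAAT once before the annotated start, and TATAAA once after it. Of 27025 annotated promoters of the same length, 1.11% held TTTCCCGC at all and 1, that of Hist1h4a, held it at least 4 times. Hist1h4i held TATAAA, which 14.2% of all promoters did, and neither of the other motifs. A match describes letters in the window and says nothing about binding. Promoters were at hand for 18 of the 22 histone genes. CCAAT, found in 37.9% of all promoters, stood in 6 of 9 variants and 8 of 9 replication-dependent genes, and TTTCCCGC in Hist1h4a alone of the 18.

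Hist1h3e, an H3 gene, fell the most in VWAT. It stood at 0.0842, 0.0803 and 0.0430 CPM in VWAT HFD, against 0.459, 0.487 and 0.388 CPM in VWAT SD, with no overlap. Summed counts were 11 in VWAT HFD and 71 in VWAT SD. The log2 change was -2.61 ± 0.38 (edgeR adjusted p = 0.0017), and the scaled counts were 6.27 times lower in VWAT HFD with a 95% counting interval of 3.30 to 13.1. Its neighbour Hist1h1d, the gene for the linker histone H1.3, lies 847 bases away on chromosome 13 and is transcribed towards it. Hist1h1d had 0.118, 0.140 and 0.108 CPM in VWAT HFD and 0.289, 0.233 and 0.388 CPM in VWAT SD. These groups did not overlap, from 19 counts in VWAT HFD and 49 in VWAT SD, and the change did not pass (log2 -1.30 ± 0.52, edgeR adjusted p = 0.11). Hist1h3e and Hist1h1d reached 20 counts, which every gene in the table did somewhere, only in VWAT SD. Their entry into the table therefore favours a fall from VWAT SD.

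The abundant replication-dependent genes did not pass in VWAT. Hist1h1c averaged 38.7 ± 8.05 CPM in VWAT HFD and 45.8 ± 2.98 CPM in VWAT SD. Hist1h2bc averaged 27.0 ± 5.04 CPM in VWAT HFD and 21.2 ± 2.43 CPM in VWAT SD, and passed without VWAT HFD replicate 3 (log2 0.49, edgeR adjusted p = 0.020). Hist2h2be, another H2B gene, had 1.99, 2.03 and 3.08 CPM in VWAT HFD, against 3.27, 3.91 and 4.50 CPM in VWAT SD. Its groups did not overlap, the log2 change was -0.72 ± 0.24 (edgeR adjusted p = 0.055), and without VWAT HFD replicate 3 it passed (-0.95, edgeR adjusted p = 0.0084). Replicate 3 was the lowest VWAT HFD library for Hist1h2bc and the highest for Hist2h2be, so leaving it out enlarges both changes by construction. In that setting 4266 of all 14324 tested genes were called, against 2228 with all libraries. The Hist2h2be call was made in 7 of 20 alternative settings, among them DESeq2 (adjusted p = 0.027), limma voom (adjusted p = 0.030), library size alone and the replicate block. Hist1h2be (H2B), Hist2h3c1 and Hist2h3c2 (H3), Hist2h4 (H4) and Hist3h2a (H2A) had log2 changes between -0.33 and 0.21 in VWAT and none passed.

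**Figure D3:**
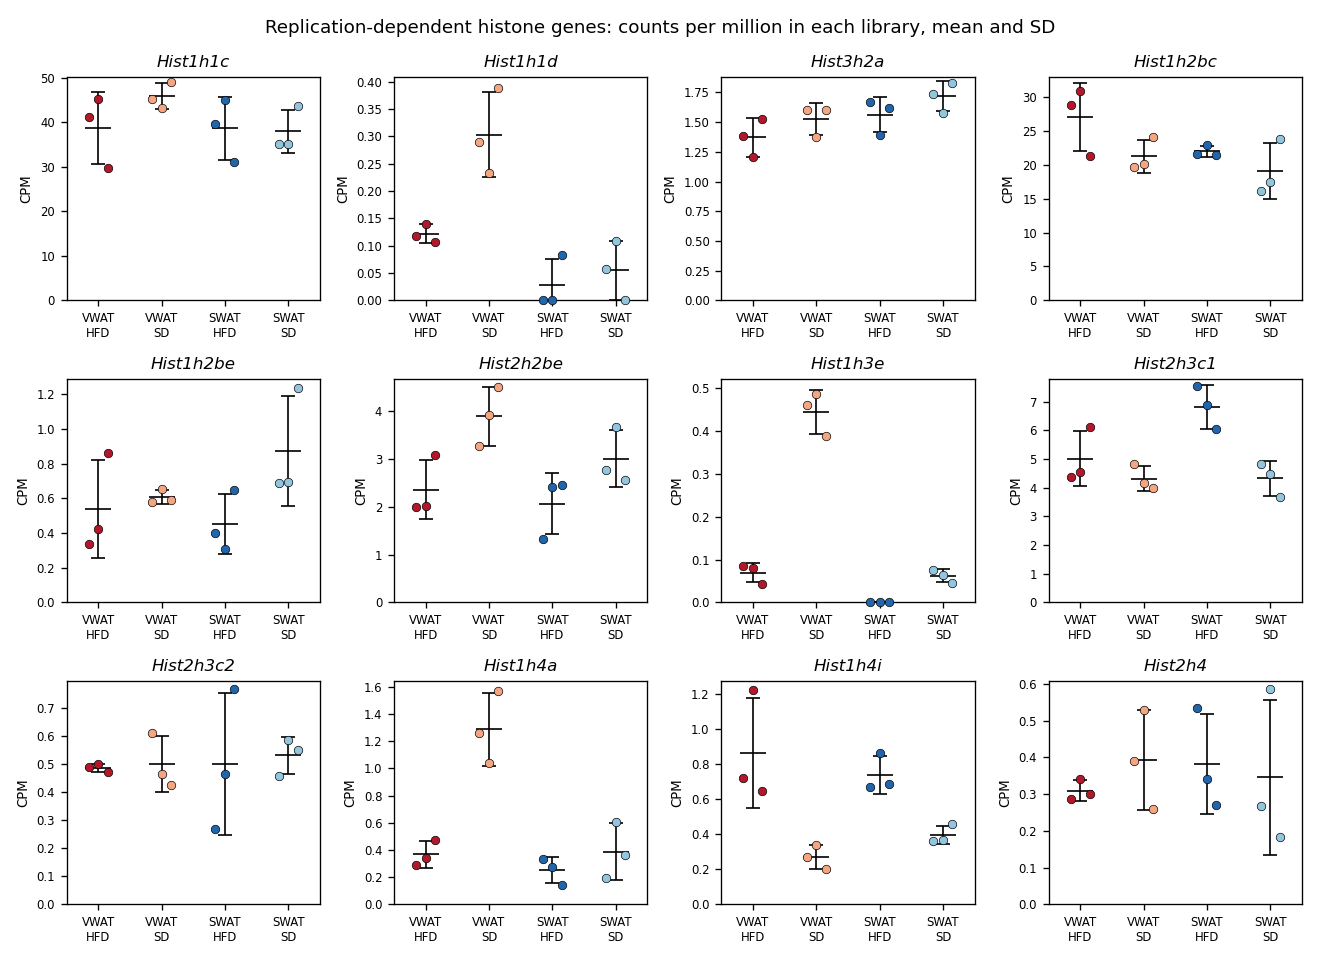
Points are the CPM of each of 3 libraries per group, and bars the mean and SD, for the 12 replication-dependent genes; each panel's axis starts at 0. Hist1h4i is higher on HFD in both depots, Hist1h4a and Hist1h3e are high in VWAT SD, and Hist1h3e is at 0 in SWAT HFD.

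In SWAT, no histone gene passed the diet test, where 1.11% of all tested genes were called, 0.967% up and 0.147% down. The groups did not overlap for 7 of the 22, 3 higher and 4 lower on HFD, beside 21.8% of all tested genes, 11.6% higher and 10.2% lower. By edgeR, 5 of the 22 had an unadjusted p under 0.05, beside 2120 of all 14266 tested genes. DESeq2 called 1 of the 22 (Hist2h3c1) and 536 of all genes, and limma voom called 0 of the 22 and 12 of all genes. The median log2 change was 0.10 over the variants and -0.09 over the replication-dependent genes, beside -0.00 over all tested genes, and with library size alone, which set the median of all genes at -0.18, these were -0.08 and -0.26. The split of all calls was then 101 up and 162 down, against 138 up and 21 down with TMM.

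The 3 members that lay wholly higher on the high-fat diet in SWAT were H2afx, Hist1h4i and Hist2h3c1. H2afx stood at 15.98, 14.4 and 14.5 CPM in SWAT HFD, against 10.98, 10.5 and 10.5 CPM in SWAT SD. These libraries were tight and did not overlap (log2 0.48 ± 0.21, edgeR adjusted p = 0.31). H2afx passed when only the 6 SWAT libraries were fitted and when VWAT HFD replicate 3 was left out of the shared fit. Hist1h4i had 0.669, 0.866 and 0.687 CPM in SWAT HFD, against 0.363, 0.368 and 0.458 CPM in SWAT SD, also without overlap (log2 0.94 ± 0.33, edgeR adjusted p = 0.21). Hist2h3c1 is an H3 gene whose every read-length window also occurs in another annotated gene. It had 7.56, 6.87 and 6.03 CPM in SWAT HFD, against 4.84, 4.46 and 3.67 CPM in SWAT SD (log2 0.63 ± 0.17, edgeR adjusted p = 0.092).

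Several SWAT members were lower on the high-fat diet without passing. H2afy2 had 7.69, 8.73 and 9.11 CPM in SWAT HFD, against 11.1, 10.05 and 10.9 CPM in SWAT SD, with no overlap (log2 -0.31 ± 0.11, edgeR adjusted p = 0.21). Hist2h2be had 1.34, 2.41 and 2.46 CPM in SWAT HFD, against 2.77, 3.68 and 2.57 CPM in SWAT SD (log2 -0.50 ± 0.25, edgeR adjusted p = 0.39). Hist1h2be had 0.401, 0.309 and 0.645 CPM in SWAT HFD, against 0.689, 0.693 and 1.24 CPM in SWAT SD, from 47 counts in SWAT HFD and 95 in SWAT SD, with no overlap (log2 -0.83 ± 0.41, edgeR adjusted p = 0.37). Hist1h3e had 0 counts in all 3 SWAT HFD libraries, against 8 counts in SWAT SD. Against a floor of 3 counts over the group the level was 2.11-fold lower in SWAT HFD, the 95% interval for counting error began at 1.35-fold lower, and the change did not pass (edgeR adjusted p = 0.096). At these depths 3 counts in a SWAT HFD library correspond to 0.0624 to 0.201 CPM, against 0.0458 to 0.0765 CPM of Hist1h3e in SWAT SD, so absence from SWAT HFD is not shown. H2afz averaged 39.7 ± 4.22 CPM in SWAT HFD and 34.4 ± 2.89 CPM in SWAT SD, and Hist1h1c 38.6 ± 7.03 CPM in SWAT HFD and 37.9 ± 4.88 CPM in SWAT SD (SD, n = 3 each).

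The difference between the diet changes of VWAT and SWAT passed for 0 of the 22 genes and 0 of all tested genes by edgeR. At an unadjusted p under 0.05 it held 0 of the 22 and 1026 of all genes, and DESeq2 called 0 of the 22 and 35 of all genes. H2afz came nearest, with a log2 change 0.57 ± 0.29 larger in VWAT (edgeR adjusted p = 0.74). Without VWAT HFD replicate 3, H2afx (0.80, edgeR adjusted p = 0.027) and H2afz (0.84, edgeR adjusted p = 0.022) passed. That library was the lowest of VWAT HFD for both genes, so leaving it out raises these differences by construction. How many of all genes passed with a library left out is given with the other settings at the end.

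The plot of log2 changes shows both diet comparisons beside the depot comparisons. Since pairs of these comparisons share libraries, the panels are not independent of each other.

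**Figure D4:**
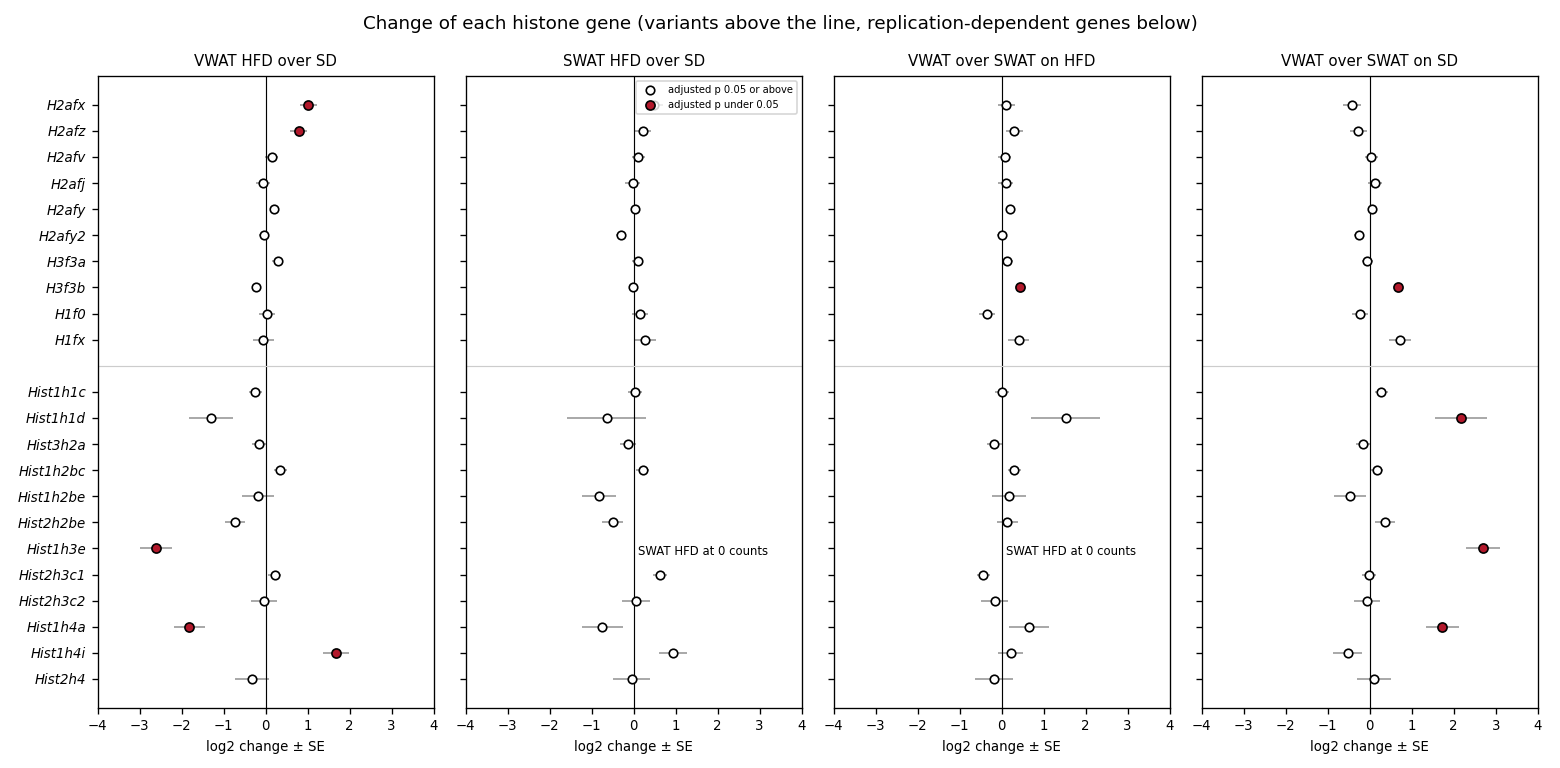
Points are log2 changes with their SE from the edgeR fit for 10 variants (above the line) and 12 replication-dependent genes (below it) in 4 comparisons, filled where the adjusted p was under 0.05. There are 5 filled points for VWAT HFD over SD, none for SWAT HFD over SD, H3f3b for VWAT over SWAT on HFD, and 4 for VWAT over SWAT on SD; Hist1h3e is not drawn where SWAT HFD had 0 counts.

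H3f3b was higher in VWAT than in SWAT on both diets. On HFD it had the VWAT values given above, against 318, 335 and 357 CPM in SWAT HFD, a log2 difference of 0.43 ± 0.10 (edgeR adjusted p = 0.0043). On SD the VWAT values stood against 343, 360 and 312 CPM in SWAT SD, a log2 difference of 0.66 ± 0.10 (edgeR adjusted p = 0.00015). No VWAT library overlapped a SWAT library on either diet. Its partner H3f3a, which encodes the same protein, differed by 0.13 on HFD and -0.06 on SD and did not pass. H3f3b made up 51.7 ± 6.53% of the summed variant level per kb in VWAT HFD, 60.9 ± 3.39% in VWAT SD, 45.6 ± 1.68% in SWAT HFD and 48.0 ± 4.36% in SWAT SD (SD, n = 3 each).

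On HFD, 2 histone genes differed between depots, H3f3b and Hist1h3e, both higher in VWAT, where 26.8% of all tested genes were called, 13.4% in each direction. The depots did not overlap for 3 of the 22, all higher in VWAT, beside 36% of all tested genes, 17.7% higher and 18.2% lower. Hist1h3e had 11 counts in VWAT HFD and 0 in SWAT HFD. Against a floor of 3 counts over the group it was 2.25-fold higher in VWAT, and the 95% interval for counting error began at 1.54-fold higher (edgeR adjusted p = 0.0088). That call was lost without SWAT HFD replicate 3 (adjusted p = 0.058). H2afx and H2afz overlapped between the depots on HFD, with log2 differences of 0.11 and 0.30. Without VWAT HFD replicate 3, edgeR called 7 of the 22: H2afx, H2afy, H2afz, H3f3b, Hist1h2bc and Hist1h3e higher in VWAT, and Hist2h3c1 lower. In that setting it called 4366 of all 14324 tested genes, a share near that of the histone genes.

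On SD, 4 of the 22 were higher in VWAT and 0 were lower, where 25.7% of all tested genes were called, 13.2% higher and 12.5% lower. The depots did not overlap for 11 of the 22, 6 higher and 5 lower in VWAT, beside 45.1% of all tested genes, 23.6% higher and 21.4% lower. The called genes were H3f3b and 3 low-count replication-dependent genes. Hist1h4a had 1.26, 1.04 and 1.57 CPM in VWAT SD, against 0.191, 0.606 and 0.367 CPM in SWAT SD (log2 1.73 ± 0.38, edgeR adjusted p = 0.0041). Hist1h3e had 71 counts in VWAT SD and 8 in SWAT SD, a scaled ratio of 6.66 with a 95% counting interval of 3.20 to 16.03 (edgeR adjusted p = 0.00045). Hist1h1d had 49 counts in VWAT SD and 8 in SWAT SD, a scaled ratio of 4.60 with a counting interval of 2.16 to 11.2 (edgeR adjusted p = 0.018). The Hist1h1d call was lost without VWAT SD replicate 3 (adjusted p = 0.068) or SWAT SD replicate 1 (adjusted p = 0.087). Since Hist1h3e and Hist1h1d entered the table only through VWAT SD, their entry favours a higher level in that group.

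Same-numbered SD libraries of the depots deviated together, and a fit of the 6 SD libraries with the replicate number as a block, added after the data were seen, called 10 of the 22. That fit called 6662 of all genes, against 3669 in the main fit, so the added calls are not particular to histone genes. Beside the same 4 genes it called H1fx (log2 0.71, edgeR adjusted p = 0.00023) and Hist1h1c (0.28, adjusted p = 0.0017) as higher in VWAT. It called H2afx (-0.43, adjusted p = 0.0015), H2afz (-0.27, adjusted p = 0.0052), H2afy2 (-0.27, adjusted p = 0.018) and H1f0 (-0.23, adjusted p = 0.0034) as lower in VWAT. The block over all 12 libraries called the 4 genes of the fit without it. H1f0 encodes H1.0, a linker histone of resting and differentiated cells. It had 41.8, 42.3 and 55.7 CPM in VWAT SD, against 50.2, 47.4 and 66.9 CPM in SWAT SD, and replicate 3 was the highest in both depots. H1fx, the gene for the linker histone H1.X, had 5.14, 5.63 and 7.35 CPM in VWAT SD, against 3.18, 3.16 and 4.86 CPM in SWAT SD, also with replicate 3 highest and without overlap.

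The median depot difference over the variants was 0.12 on HFD and -0.02 on SD, and over the replication-dependent genes 0.15 and 0.13, beside 0.02 over all tested genes on both diets. Library size alone moved the median of all genes to 0.30 on HFD and 0.24 on SD. The variants' median was then 0.40 on HFD and 0.20 on SD, so its sign on SD rests on the scaling, and that of the replication-dependent genes 0.43 and 0.35. The same scaling moved the split of all calls to 5830 up and 1124 down on HFD, against 1918 up and 1912 down with TMM. On SD that split was 4279 up and 1118 down, against 1880 up and 1789 down with TMM. Of 6 mesothelial genes, 4 were higher in VWAT and 1 was lower on both diets. Together the 6 summed to 106 to 121 CPM in VWAT HFD and 103 to 131 CPM in VWAT SD, against 2.41 to 4.83 CPM in SWAT HFD and 2.75 to 4.59 CPM in SWAT SD. Wt1 made nearly all of the VWAT sums, with means of 107.5 CPM in VWAT HFD and 114.9 CPM in VWAT SD, against 0.435 CPM in SWAT HFD and 0.434 CPM in SWAT SD. The other mesothelial genes averaged at most 1.71 CPM (Upk3b in VWAT HFD) in the VWAT groups. The VWAT sums thus follow Wt1 and not the set as a whole. Krt19 made most of the SWAT sums and went the other way, at 0.497 CPM in VWAT HFD, against 3.06 CPM in SWAT HFD (log2 -2.61, edgeR adjusted p = 0.00053). Of 8 genes of the sort gate and of precursors, 5 were lower in VWAT on both diets (Cd34, Ly6a, Cd24a, Dpp4 and Pparg), and Itgb1 was higher on HFD. Of 8 mural cell genes, 3 were higher and 2 lower in VWAT on HFD, and 3 were higher and 3 lower on SD. Of 9 leukocyte genes tested, 4 were lower in VWAT on HFD and 0 on SD. The part of such cells in the depot differences was not tested.

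Of 15 chaperones and import factors that handle newly made histones, 7 rose and 0 fell on the high-fat diet in VWAT, where 8.64% of all tested genes rose and 6.98% fell. They included Asf1b, which hands H3 and H4 on during replication (log2 2.73, edgeR adjusted p = 0.0020), the chromatin assembly subunit gene Chaf1b (2.17, adjusted p = 0.0024), the importin gene Ipo4 (0.46, adjusted p = 0.0036) and Mms22l (1.00, adjusted p = 0.011). Their median log2 change was 0.29, beside -0.02 over all tested genes. Of 12 factors of histone mRNA transcription and 3′ processing, 1 rose, Lsm11 of the U7 particle that cuts the mRNA after the stem-loop (0.50, edgeR adjusted p = 0.034), a share near that of all tested genes. Slbp, the stem-loop binding protein gene, averaged 31.5 ± 3.89 CPM in VWAT HFD and 28.9 ± 1.15 CPM in VWAT SD and did not pass (edgeR adjusted p = 0.40).

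Of 16 genes listed for variant deposition, 2 rose and 0 fell in VWAT, beside the 8.64% of all tested genes that rose. One of them, Cenpa (3.00, edgeR adjusted p = 0.0016), encodes the centromeric H3 variant itself, which the symbol rule does not take in, and is not a deposition factor. In SWAT 2 rose and 0 fell, beside 0.967% of all tested genes that rose, and Cenpa rose by 2.43 (edgeR adjusted p = 0.044), where 0 of the 15 chaperones and 0 of the 12 processing factors passed. Hira, whose protein deposits H3.3, had log2 changes of -0.14 in VWAT and -0.10 in SWAT and did not pass.

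Between depots on HFD, 5 of the 15 chaperones were higher in VWAT and 0 lower, beside 13.4% of all tested genes in each direction, among them Chaf1b (1.58, edgeR adjusted p = 0.0058) and Asf1b (1.26, adjusted p = 0.040). Npat, which drives histone transcription, was higher in VWAT on HFD (0.37, edgeR adjusted p = 0.016) and on SD (0.38, adjusted p = 0.014). Casp8ap2, its partner at histone genes, was also higher on SD (0.33, edgeR adjusted p = 0.024). Daxx, an H3.3 chaperone, was lower in VWAT on HFD (-0.39, edgeR adjusted p = 0.0040), and Anp32e, which removes H2A.Z, was higher (0.28, adjusted p = 0.038). On SD, Rbbp7 was higher (0.41, edgeR adjusted p = 0.023) and Nap1l1 lower (-0.41, adjusted p = 0.023), and 0 of the 16 deposition genes passed.

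Cell-cycle genes stood beside these values in the same libraries. Of 20 mitosis genes, 20 rose in VWAT and 15 in SWAT, with Mki67 at 3.03 (edgeR adjusted p = 0.00079) and 2.93 (adjusted p = 0.019), and Top2a at 3.18 and 2.69. Of 26 DNA replication genes, 19 rose in VWAT and 1 in SWAT, and Mcm5 rose by 1.44 in VWAT (edgeR adjusted p = 0.0077), with a log2 change of 0.42 in SWAT that did not pass (adjusted p = 0.59). H2afx and H2afz were highest of all 12 libraries in VWAT HFD replicates 1 and 2, the libraries with mitosis sums of 406 and 636 CPM, and Hist1h4i was highest in replicate 2. VWAT HFD replicate 3, with a mitosis sum of 162 CPM, lay within the SWAT HFD range of that sum, but its H2afx (9.57 CPM) and H2afz (29.2 CPM) were below all SWAT HFD libraries (14.4 to 15.98 and 34.9 to 43.0 CPM). Its Hist1h4i (0.645 CPM) was likewise just under the lowest SWAT HFD library (0.669 CPM). Hist1h4a ranged from 0.286 to 0.473 CPM in VWAT HFD, against 1.04 to 1.57 CPM in VWAT SD, so in VWAT the diet group with the lower mitosis sums had the higher values. SWAT SD, with the lowest mitosis sums of all groups, had 0.191 to 0.606 CPM of Hist1h4a. The part of dividing cells in these differences was not tested.

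**Figure D5:**
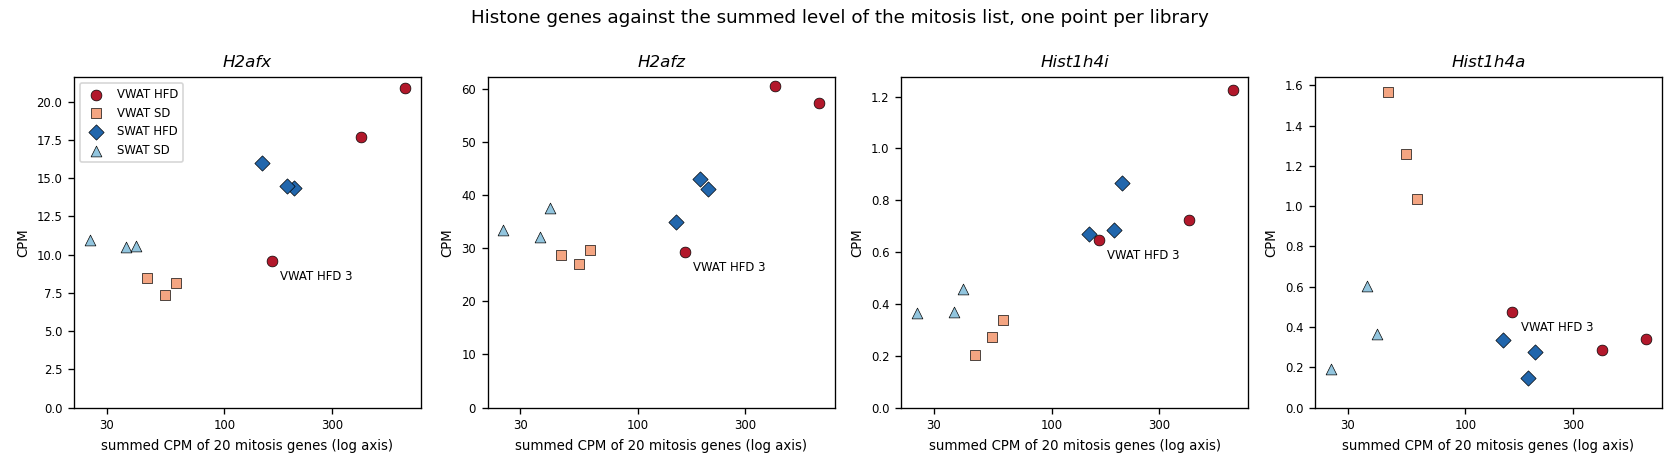
Each point is a library, with the summed CPM of 20 mitosis genes on a log axis and the CPM of H2afx, H2afz, Hist1h4i or Hist1h4a on a linear axis from 0. VWAT HFD replicate 3 (162 CPM of mitosis genes) lies apart from VWAT HFD replicates 1 and 2 (406 and 636 CPM), and the 3 VWAT SD libraries are the highest for Hist1h4a.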

How the data were processed

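Poly(A)-selected RNA of 12 libraries was made into strand-marked libraries and read as 75 bp single ends, per the labels' protocols. The authors deposited 1 table of read counts per gene, with no normalization. Alignment was with TopHat and counting with HTSeq on the mouse build mm9, per the submitters' processing notes, with versions, annotation and strand setting not given in the sources used here. In the table, 3 rows that name no gene held 3.53 to 5.57% (no feature), 1.71 to 1.95% (ambiguous) and 15.0 to 20.8% (not unique) of the reads and were left out.

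Genes were filtered with filterByExpr by group (132 removed). edgeR's quasi-likelihood test (version 4.0.16, robust, TMM, R 4.3.3) was fitted over all 12 libraries and 4 groups, with Benjamini-Hochberg adjustment over all 14266 tested genes in each of 5 contrasts: diet in each depot, depot on each diet, and the difference of the diet changes. CPM are TMM-scaled. The histone genes, gene lists and tests were chosen with earlier results of these data known, so they give no independent support. Named were all variants, and replication-dependent genes that passed in any contrast or were among the 8 highest by mean CPM; of the gene lists, up to 4 with the lowest adjusted p per contrast, plus Mki67, Top2a, Slbp, Asf1b, Cenpa and Mcm5. Further list members and low histone genes, among them H4, H3 and H2A genes that did not pass, were named after their values were seen. A list gene that met the naming rule is not reported here. A group with no counts was given 3 counts in all as its floor. Ratios of summed counts have 95% intervals, which cover counting error only, as does the floor.

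On simulated counts for the VWAT diet contrast (14230 genes), the test recovered 78% of 100 genes changed by a log2 of 1 and 95% of 100 genes changed by 2, with 6 false calls. Same-numbered libraries were checked for pairing by the correlation of their deviations from group means. It was 0.38, 0.32 and 0.61 between depots on SD, which was taken as pairing. In each other contrast some number did not exceed 0.1, so no pairing was taken. For diet in SWAT it was 0.09, 0.18 and 0.26, so a weaker pairing there is not excluded. Alternatives were DESeq2 (version 1.42.0) size factors or Wald test, limma voom (version 3.58.1), library size alone, no filter, a mean CPM of at least 5, only the libraries compared, a replicate block, libraries left out, and H2afx summed with the replication-dependent class.

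Stem-loops, poly(A) signals, transcript lengths and shared windows come from GENCODE M21 on GRCm38 and promoters from RefSeq on GRCm38.p6, not from mm9. All symbols were matched as the table gives them.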

Additional observations from a re-analysis of the deposited data

How the results depend on the processing

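Of the 11 called pairs of a histone gene and a comparison, 8 kept their call in every alternative that could be fitted and 0 reversed. A filter left low genes untested in some alternatives, so the pairs had 19 to 22 of them. The 8 include Hist1h3e for diet in VWAT and for depot on SD, which its entry into the table through VWAT SD favours. Of the 22 histone genes, the number called for diet in VWAT was 2 with a mean CPM of at least 5, 10 without VWAT HFD replicate 3 and SWAT HFD replicate 2 together, and 4 to 10 with each library left out. For diet in SWAT it was 1 with DESeq2, 1 with only the libraries compared, 1 with the pair left out and 0 to 2 with each library left out. For depot on HFD it was 7 with library size alone, 1 with a mean CPM of at least 5, 1 with only the libraries compared, 4 with the pair left out and 2 to 7 with each library left out. For depot on SD it was 7 with library size alone, 1 with a mean CPM of at least 5, 7 with only the libraries compared, 7 with the pair left out and 3 to 7 with each library left out. For the difference of diet changes it was 1 with the pair left out and 0 to 2 with each library left out. A mean CPM of at least 5 removes most replication-dependent genes from testing by construction; the other causes were not tested. With the replicate block, depot on SD gave 10 with only the 6 SD libraries and 4 with all 12. The block called 6 for diet in VWAT, 0 in SWAT, 2 for depot on HFD and 0 for the difference. Apart from depot on SD, no comparison met the rule by which the numbers were taken as pairing.

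With library size alone, the summed level of the variants was 899.6 CPM in VWAT SD, 544.4 CPM in SWAT HFD and 596.1 CPM in SWAT SD, and that of the replication-dependent genes 91.4 CPM in VWAT SD and 63.0 CPM in SWAT HFD. With H2afx summed with the replication-dependent genes, the variants held 616.2 CPM in SWAT HFD and 600.8 CPM in SWAT SD, and the replication-dependent genes 93.2 CPM in VWAT HFD, 88.6 CPM in VWAT SD, 88.3 CPM in SWAT HFD and 79.4 CPM in SWAT SD. Over all genes, the number called for diet in VWAT (2228) was 1246 with only the libraries compared, 4054 with the pair left out and 757 to 4266 with each library left out. For diet in SWAT (159) it ranged over the alternatives from 12 with voom to 536 with DESeq2, and from 0 to 615 with each library left out. For depot on HFD (3830) it was 6954 with library size alone and 2499 with a mean CPM of at least 5, and for depot on SD (3669) 2364 with a mean CPM of at least 5 and 6662 with the block of 6 libraries. For the difference of diet changes (0) it was 35 with DESeq2, 1 with the block, 46 with the pair left out and up to 135 with each library left out. Depth limits the low genes most: 3 counts were worth 0.0505 to 0.201 CPM in the 12 libraries, above several values of Hist1h3e and Hist1h1d.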
